A study of Mus musculus with 3 samples.

Results

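The 38 genes described here are components of the Notch pathway, chosen by name as receptors, ligands, enzymes that process them, nuclear partners and target genes. On the array, 37 of them had at least 1 probe set (a group of short probes read as 1 value) annotated to that gene alone, out of 18193 such genes in all, and Maml3 was not analysed here. Expression was measured in 3 arrays of a single group, Six2_cap_mesenchyme_E15.5, each made from a pool of about 5 to 10 kidneys of CD-1 mouse embryos at E15.5 (Theiler stage 23, sex unknown). The embryos carried Tg(Six2-EGFP/cre)1Amc, a transgene in which Six2 control regions drive a fusion of EGFP and cre, and cells dissociated with trypsin were sorted by fluorescence, with a gate not given in the sources used here. All 3 pools share this transgene, and no unsorted kidney or other cell population is among the samples, so levels were compared with array background only. Cap mesenchyme is the cell layer around the ureteric tips that holds the progenitors of the nephron. Nothing in the labels says whether the pools, called pools 1 to 3 here, came from separate litters, so the p-values measure only the spread between these samples, which may be technical.

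Notch receptors are membrane proteins that are activated by ligands on a neighbouring cell. Ligand binding exposes the receptor to an ADAM protease and then to gamma-secretase, which frees the intracellular domain to enter the nucleus, join Rbpj and a Mastermind coactivator, and switch on genes such as those of the Hes and Hey families. In the developing kidney the pathway is known for its part in the differentiation of progenitors and in the formation of proximal nephron segments, with Notch2 as the main receptor.

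Transcripts of many genes of the pathway were above background in the sorted cells. Among them were Notch1, Notch2 and Notch3, the ligands Jag1, Jag2 and Dll1, and both proteases of the ADAM family. Rbpj, Maml1 and the targets Hes1, Hes6, Hey1, Heyl and Nrarp were above background too. Of the gamma-secretase genes listed, Psen2, Aph1a and Psenen were above background and Ncstn was not. Notch3 was no longer above background once probe sets with names ending in _s_at or _x_at were dropped. Jag2 was no longer above background when any single pool was left out. In all, 26 of the 37 measured members (70.3%) were above background, beside 54.4% of all named genes. The 11 others were Notch4, Dll3, Dll4, Lfng, Mfng, Ncstn, Maml2, Hes3, Hes5, Hes7 and Hey2. A gene counted as above background if the adjusted p of any of its probe sets was under 0.05 in a one-sided limma test of log2(signal + 16) against the 95th percentile of probe sets for genes of other tissues, such as odorant receptors, on the same array. The median distance from that background level was 3.41 on the log2 scale for the members and 1.20 for all named genes. In bulk samples such as these, fewer cells that express a gene and less RNA per cell cannot be told apart.

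**Figure D1:**
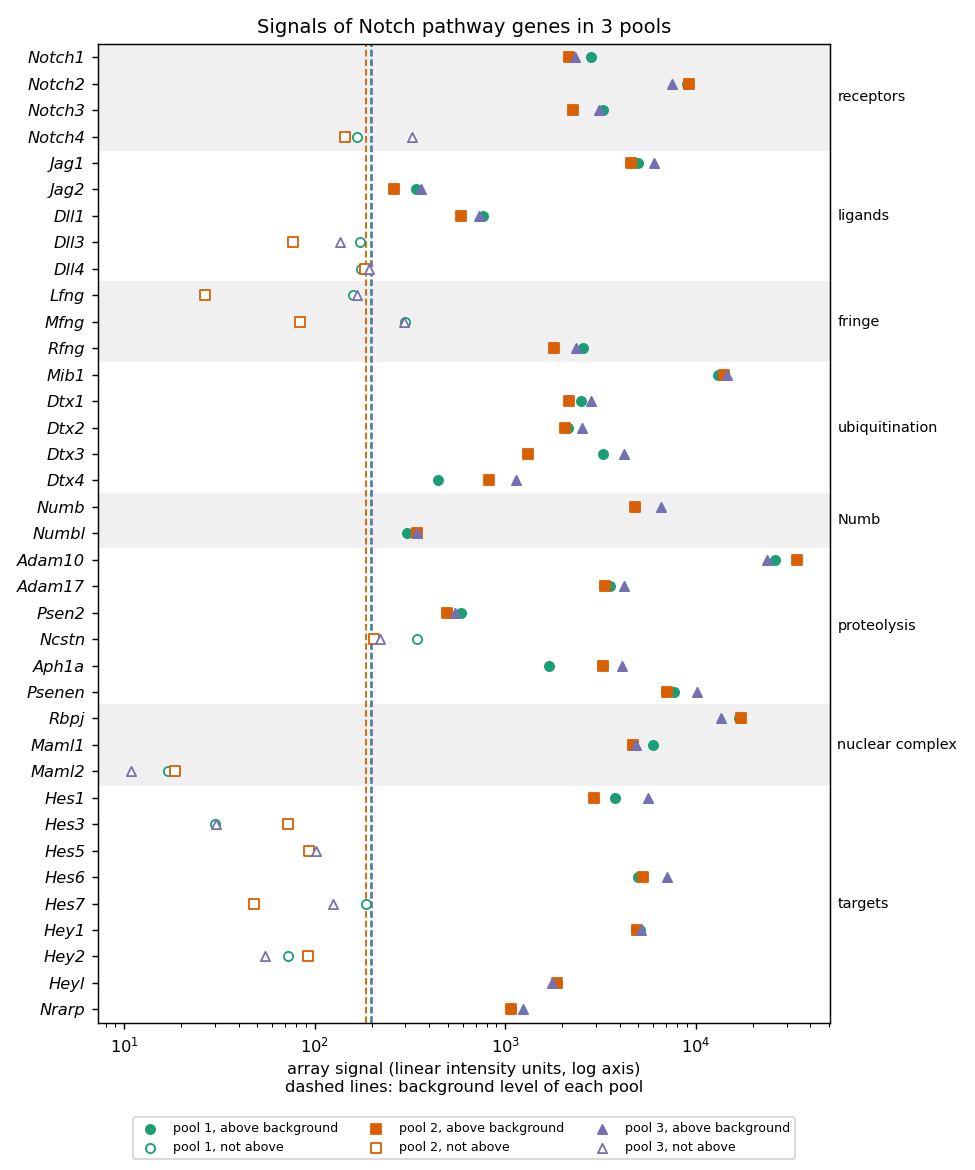
Array signal of each Notch pathway gene (linear intensity units, log axis) in pools 1, 2 and 3, by role; filled symbols mark genes above background, open symbols genes that were not, and dashed lines the background level of each pool (186 to 201). The 26 genes above background lie to the right of the dashed lines in every pool, as does Ncstn, which did not pass the test.

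The number of probe sets of a gene bears on such a call. Members had a mean of 1.95 and a median of 2, against 1.92 and 1 for all named genes. Several probe sets were present for 25 of the 37 members and for 9010 of the 18193 named genes. The share of 54.4% over all named genes does not allow for this difference. Of the members with 1 probe set, 6 of 12 were above background (37.1% of all such genes), and of those with several, 20 of 25 were (72.0% of all such genes). Counted by probe set, 39 of the 72 that name a member passed (54.2%). Over all 45037 probe sets, 41.5% passed, but these include 9160 with no gene symbol and 932 with several. Median signals of the arrays were 184 to 222, and the background level was 186 to 201. All 9 listed markers of cap mesenchyme, Six2 (8734, 5727 and 9255 in pools 1, 2 and 3) among them, were above background. This is no independent check of the label. The cells were sorted by fluorescence from embryos with a Six2 transgene, and the lists were chosen with earlier results known. Of 8 stromal markers, 6 were above background too. With 3 arrays, the precision of each mean is limited. Signals of different probe sets differ in affinity, so levels of different genes are not ranked.

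Of the 4 receptor genes, all with several probe sets, 3 were above background (75%). The share was 54.4% of all named genes and 72% of those with several probe sets. Notch2 read 9042, 9189.6 and 7531 in pools 1, 2 and 3, a mean of 8588 ± 918 (SD, n = 3), 5.35 ± 0.13 (SE) log2 units over background (adjusted p = 1.7e-08, limma). All 3 pools lay close together. Notch1, the receptor that acts in blood vessels and in many stem cell populations, read 2815, 2170.2 and 2314 (log2 distance 3.53 ± 0.13, adjusted p = 1e-07). Notch3, known best from the smooth muscle of vessels, read 3251, 2264 and 3108 (3.76 ± 0.14, adjusted p = 9.6e-08). Pool 2 was the lowest for both of these receptors, though far over its background level. Each of the 3 receptors rested on 1 of its 2 probe sets. The other probe set of Notch1 had signals of 226, 253 and 41.3, that of Notch2 194, 40.1 and 222, and that of Notch3 23.9, 111 and 74.2. The probe set behind the Notch3 call has a name ending in _s_at, a kind that can match several transcripts. Without probe sets with names ending in _s_at or _x_at, Notch3 was below background (log2 distance -1.45). Notch4, a receptor of endothelial cells, read 167, 144 and 326 and did not pass (log2 distance 0.03 ± 0.33, adjusted p = 0.938). Its signal exceeded the background level in pool 3 only, and none of its 3 probe sets passed in limma, at an adjusted p or at an unadjusted p under 0.05.

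Among the 5 ligand genes, Jag1, Dll1 and Jag2 were above background (60%, beside 54.4% of all named genes). Jag1, a ligand of forming nephrons, read 4957, 4571 and 6076 (log2 distance 4.62 ± 0.13, adjusted p = 2.2e-08). All pools were high on 1 of its 3 probe sets, while the others averaged 164 and 261 and did not pass. Dll1, a Delta ligand also known from forming nephrons, read 769.8, 588 and 730.0 on its single probe set (1.75 ± 0.17, adjusted p = 3.3e-05). Every pool lay well over its background level. Jag2 was near the threshold, with 339, 262 and 364 (0.67 ± 0.24, adjusted p = 0.0313). Leaving out pool 1, 2 or 3 ended this call (adjusted p from 0.0763 to 0.117 in limma). The log2 distances of Jag2 were then 0.60 to 0.77, with 1 array fewer in each test. Jag2 lay below the 99th percentile of background (log2 distance -0.46). Dll4, the Delta ligand of endothelial tip cells, read 175, 184 and 192, under the background level in each pool (-0.075 ± 0.29, adjusted p = 1). Dll3, an inhibitory ligand of somite formation, read 174, 77.3 and 136 and was likewise under that level in all 3 pools.

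Fringe enzymes add sugars to the receptors and alter which ligands activate them. Rfng was the member of this family above background, with 2558, 1799.7 and 2361 (log2 distance 3.41 ± 0.14, adjusted p = 1.7e-07). Again pool 2 was lowest, and the other of its 2 probe sets read 161, 42.6 and 204. Lfng, which is known from the segmentation clock and from early nephrons, read 158, 26.6 and 166 and was under the background level in every pool. Mfng split the pools: it read 298 and 294 in pools 1 and 3 and 84.3 in pool 2 (0.02 ± 0.39, adjusted p = 0.969), so pool 2 alone lay under the background level.

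The ubiquitin ligase genes were above background without exception, 5 of 5, beside 54.4% of all named genes. Several probe sets were present for 4 of the 5, and 72% of all named genes with several were above background. Mib1, which ubiquitinates ligands and so allows them to be internalised and to signal, read 13181, 14078 and 14556 (log2 distance 6.05 ± 0.13, adjusted p = 1.6e-08). These pools differed by 1.10-fold at most. The Deltex genes encode ligases, some of which bind the intracellular part of the receptor. Dtx1 read 2494, 2165 and 2814 (3.57 ± 0.13) and Dtx2 read 2134, 2066 and 2537 (3.42 ± 0.13), with adjusted p of 7.9e-08 and 9.9e-08. The Dtx2 value comes from a probe set that can match several transcripts, and its other probe set passed with 320.4, 451 and 418 (log2 distance 0.96, adjusted p = 0.00511). The other Deltex genes varied more between pools. Dtx3 read 3281, 1319 and 4227, a 3.21-fold range with pool 2 lowest (3.66 ± 0.28, adjusted p = 8.2e-06). Dtx4 read 446, 824 and 1141, a 2.56-fold range with pool 1 lowest (1.86 ± 0.26, adjusted p = 0.0003).

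Numb and Numbl encode endocytic adaptors that restrain the receptor. Numb read 4823, 4804 and 6554 (log2 distance 4.67 ± 0.13, adjusted p = 2.8e-08), with pool 3 the highest. Its other probe set was far below background, at 20.1, 28.3 and 18.5. Numbl was near the threshold with 306, 346 and 346 (0.73 ± 0.23, adjusted p = 0.0195). The pools of Numbl agreed closely, but leaving out pool 2 or pool 3 ended the call (adjusted p of 0.119 and 0.0585 in limma). The log2 distances of Numbl were then 0.67 and 0.72, with 1 array fewer in each test. With background set at the 99th percentile, its log2 distance was -0.40.

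Of the 6 genes for receptor cleavage, 5 were above background (83.3%, beside 54.4% of all named genes). Several probe sets were present for 5 of the 6, and 72% of all named genes with several were above background. Adam10, the protease that makes the first cut after ligand binding, read 26126, 33933 and 23837 (log2 distance 7.04 ± 0.17, adjusted p = 1.6e-08), and 3 of its 4 probe sets passed. Adam17, a related sheddase, read 3551, 3346 and 4192 (4.13 ± 0.12, adjusted p = 3.1e-08), and each of its 3 probe sets passed. The remaining members of this group belong to gamma-secretase, the complex that cuts within the membrane. Psenen, its small activating subunit, read 7748, 7069.7 and 10210.3 (5.29 ± 0.14, adjusted p = 1.9e-08). Aph1a, a scaffold subunit, read 1695, 3275 and 4112, a 2.43-fold range with pool 1 lowest, on a probe set that can match several transcripts (3.76 ± 0.24, adjusted p = 2.4e-06). Its other 2 probe sets also passed but did not share that order of pools, with 892, 719 and 757.5 on one and 385, 338 and 303 on the other. Psen2, one of the presenilins that form the catalytic core, read 587, 496 and 544 (1.40 ± 0.18, adjusted p = 0.00019). That call was lost at the 99th percentile of background (log2 distance 0.27, adjusted p = 0.337). Ncstn, the subunit that admits substrates, read 347, 204 and 221 and did not pass (0.34 ± 0.28, adjusted p = 0.29), although it exceeded the background level in all 3 pools.

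In the nucleus, Rbpj, the DNA-binding partner of the receptor's intracellular domain, read 16876, 17345 and 13525 (log2 distance 6.23 ± 0.15, adjusted p = 1.6e-08), and all 3 of its probe sets passed. The Mastermind coactivator Maml1 read 6003, 4664 and 4861 (4.62 ± 0.13, adjusted p = 2.4e-08) on a probe set that can match several transcripts. A second probe set of Maml1, without that property, also passed with 589.7, 538 and 439, and the last of its 3 did not. Maml2 was far below background on its single probe set, at 17.1, 18.5 and 10.9 (-2.75 ± 0.25).

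Among the 9 genes grouped as targets, 5 were above background (55.6%, beside 54.4% of all named genes). The other 4 were under the background level in every pool. Whether the genes of this group respond to Notch in these cells was not tested. Hey1, a transcriptional repressor, read 5089.5, 4940.2 and 5165, a coefficient of variation of 2.26% (4.59 ± 0.11, adjusted p = 1.7e-08). Heyl, its relative, read 1876, 1883 and 1771 (3.14 ± 0.13, adjusted p = 1.7e-07). On the probe sets that represent each gene, these were the smallest ranges between pools among the 26 members above background, 1.05-fold and 1.06-fold. Hes1, a repressor that responds to Notch and to other signals, read 3766, 2936 and 5644, a 1.92-fold range with pool 3 highest (4.24 ± 0.17, adjusted p = 1.9e-07). Hes6, which is known to oppose Hes1, read 4977, 5303 and 7046 (4.77 ± 0.14, adjusted p = 2.8e-08) on a probe set that can match several transcripts. Its other probe set, with a name not ending in _s_at or _x_at, passed at a much lower level with 269, 503 and 553 (log2 distance 1.06, adjusted p = 0.00689, limma). Nrarp, a feedback inhibitor that binds the receptor's intracellular domain, read 1073, 1074 and 1243 (2.44 ± 0.14, adjusted p = 1.4e-06). Pool 3 was thus the highest for Hes1, Hes6 and Nrarp, by 1.16-fold to 1.92-fold over the lowest pool. A second passing probe set of Heyl also read highest in pool 3, with 1140.5, 918 and 1475, a 1.61-fold range, so the evenness of Heyl holds for 1 of its probe sets.

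Hes5, a target in neural progenitors and early nephrons, read 94.1, 93.01 and 102 on the better of its 2 probe sets (-0.90 ± 0.33). Hey2, a repressor of the heart and arteries, read 72.8, 92.7 and 54.7 (-1.26 ± 0.35). Hes7, the oscillator of somite formation, read 187, 47.9 and 125 (-0.78 ± 0.41), and Hes3, a gene of the neural tube, read 30.1, 72.4 and 30.2 (-1.88 ± 0.36). None of the 4 reached the background level of its array in any pool. Probe sets differ in how well they bind their target, so these readings are no proof that the RNA is missing.

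Some of the target genes could be compared in the sequence ahead of their start sites. RefSeq start sites (GRCm38.p6) were at hand for 30 of the 38 members, and the 250 bases before each were searched on both strands for GTGGGAA, a motif that Rbpj binds. A match was found for 5 of the 30 members (16.7%): Hes5, Hes7, Hey2, Lfng and Psen2. Over all 27025 genes with a listed start site, 6.18% had one. Of the 5 target genes with a listed start site, Hes5, Hes7 and Hey2 held the motif and Hes6 and Nrarp did not. Hes1, Hey1, Heyl and Hes3 were not searched, so the comparison covers 2 of the 5 target genes above background and 3 of the 4 that were not. A match describes letters in the window and is not evidence of binding, and no match says only that these letters are not in it. The 3 sequences are shown, 5′ to 3′ on the strand of the gene, because they hold the pathway's own recognition motif yet belong to targets below background. Capitals mark the motif, written TTCCCAC where it lies on the opposite strand. They lie at chr4:154960673-154960922 (plus strand) for Hes5, chr11:69120203-69120452 (plus strand) for Hes7 and chr10:30842784-30843033 (minus strand) for Hey2.
Hes5: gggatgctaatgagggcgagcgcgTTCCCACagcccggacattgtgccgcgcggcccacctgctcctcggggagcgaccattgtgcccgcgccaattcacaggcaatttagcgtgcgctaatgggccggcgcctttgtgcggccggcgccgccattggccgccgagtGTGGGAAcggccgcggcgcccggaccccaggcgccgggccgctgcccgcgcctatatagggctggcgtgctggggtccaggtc
Hes7: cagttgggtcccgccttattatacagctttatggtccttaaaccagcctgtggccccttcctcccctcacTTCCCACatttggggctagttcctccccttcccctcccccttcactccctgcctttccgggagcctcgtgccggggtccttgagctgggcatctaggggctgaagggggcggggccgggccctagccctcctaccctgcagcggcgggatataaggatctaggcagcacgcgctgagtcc
Hey2: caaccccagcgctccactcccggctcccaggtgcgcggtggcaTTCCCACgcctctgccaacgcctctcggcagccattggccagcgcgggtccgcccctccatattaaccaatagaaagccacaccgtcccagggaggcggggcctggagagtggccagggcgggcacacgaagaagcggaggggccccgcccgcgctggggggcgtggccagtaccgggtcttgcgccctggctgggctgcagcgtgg
Hes5 held 2 copies on opposite strands, the outer one beginning 226 bases before the start site. In Hes7 and Hey2 a single copy began 180 and 207 bases before it.

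Where a member had several probe sets, they often disagreed. Of the 25 such members, in 15 some passed and others did not, beside 46.3% of all genes with several probe sets. In 5 (Dtx2, Adam17, Aph1a, Rbpj and Hes6) every probe set passed, and in 5 (Notch4, Dll4, Lfng, Ncstn and Hes5) none did in limma, also at an unadjusted p under 0.05. When the weakest probe set stood for each gene, 11 members were above background in place of 26, and 5723 in place of 9892 of all named genes. Notch1, Notch2, Notch3 and Jag1 were among those that lost their calls in this way. The calls for these genes therefore rest on 1 probe set each.

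**Figure D2:**
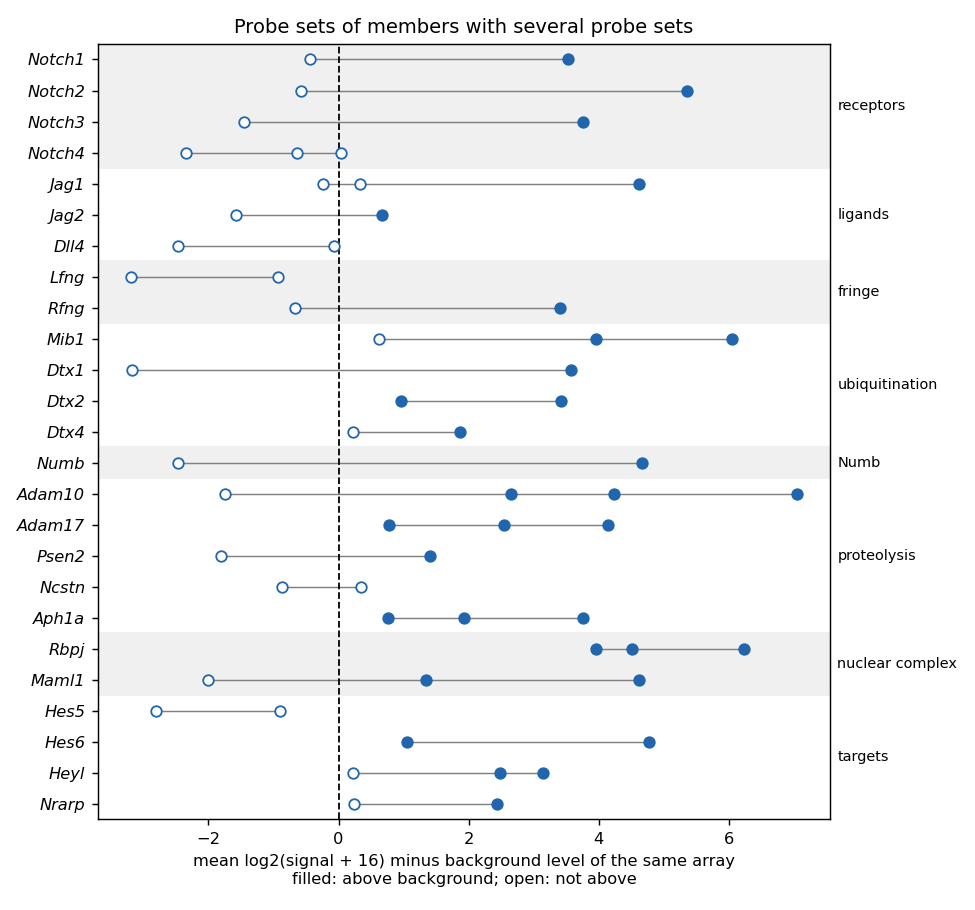
Mean log2(signal + 16) over 3 pools minus the background level, for each probe set of the 25 members with several probe sets; filled points were above background, open points were not, and the dashed line is the background level. For 15 members the points fall on both sides of the threshold, as for Notch1 (3.53 and -0.44), and all points of Rbpj lie at 3.96 or above.

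Probe sets of the same gene also disagreed about the pools. Among 13 pairs of passing probe sets of 1 member, the log2 ratio within the pair moved by at least 1 between pools in 4, beside 24.5% of such pairs over all genes. For Mib1, a second probe set read 5862, 3913 and 1478, so its log2 ratio to the main one was -1.17, -1.84 and -3.29 in pools 1, 2 and 3. For Adam10 the ratio of one such probe set was -3.45, -4.75 and -4.96, and for Aph1a the 2 further probe sets gave -2.09, -3.22 and -3.69, and -0.91, -2.16 and -2.42. In all 4 pairs the weaker probe set was relatively strongest in pool 1. Control probe sets for the 3′ and 5′ ends of 4 transcripts also differed between pools. Their log2 ratios of 3′ to 5′ signal in pools 1, 2 and 3 were 1.82, 3.28 and 3.18 for beta-actin, 1.84, 3.15 and 2.57 for the transferrin receptor, 1.66, 2.09 and 2.65 for pyruvate carboxylase, and 4.36, 5.05 and 4.08 for Gapdh. Pool 1 had the lowest ratio for 3 of these 4 controls, and their part in the differences between probe sets was not tested.

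The pools were similar for most members above background, with a median coefficient of variation of 13.9% against 16.2% for all genes above background. Dtx3, Dtx4 and Aph1a had a range of at least 2-fold, 3 of 26 members, beside 7.36% of all genes above background. This count was 1 without pool 1, 2 without pool 2 and 1 without pool 3. Leaving out a pool cannot widen the range of a probe set, so a fall was built in. The genes changed too: leaving out probe sets named _s_at or _x_at put Hes6 in the place of Aph1a, and scaling to the same median added Hes1. Pool 3 held the highest signal of 15 of the 26 members, beside 43.0% of all genes above background. Scaling the arrays to the same median, which moved all log2 signals by -0.14, 0.03 and 0.13 in pools 1, 2 and 3, made this 21 of 26, beside 61.5% of all genes, and quantile normalization made it 17, beside 43.5%. The pool that was lowest most often changed with the scaling, from pool 2 (16 members, beside 34.5% of all genes above background) to pool 1 (15 members, beside 62.8%) with the same median, while with quantile normalization it was pool 2 (12 members, beside 29.6%). Pool 3 was the highest most often under all 3 scalings, among the members and among all genes above background.

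**Figure D3:**
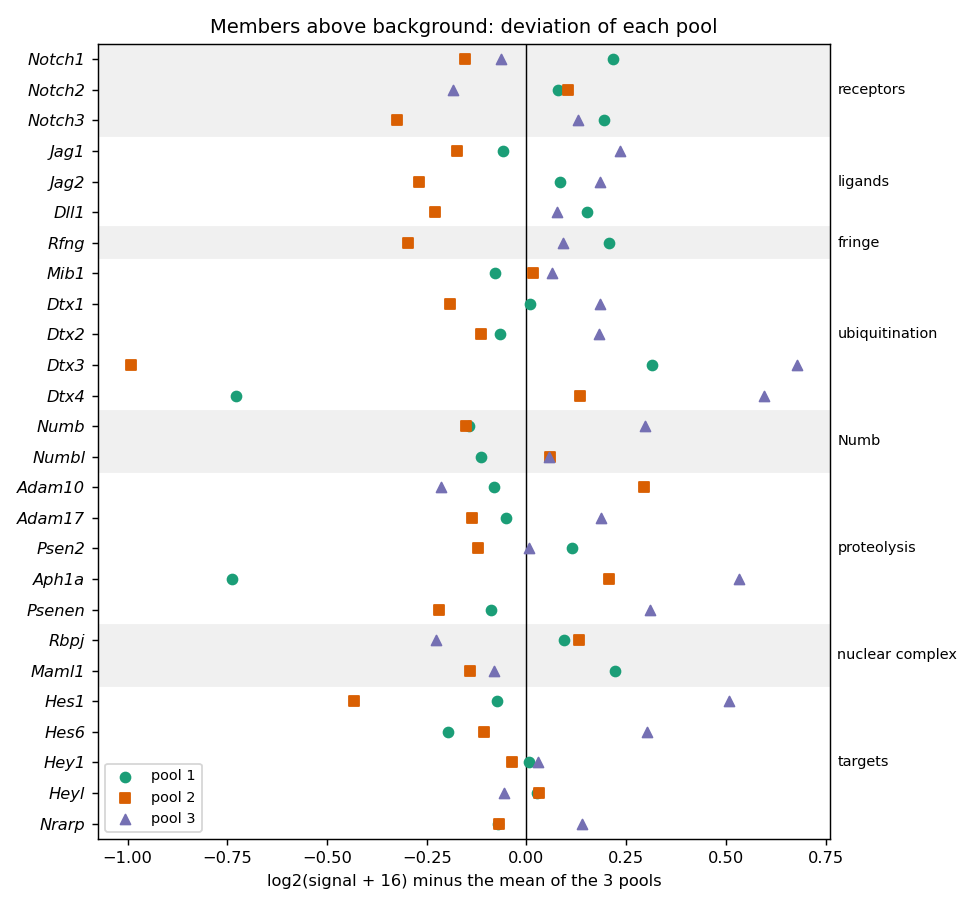
Deviation of each pool from the 3-pool mean, in log2(signal + 16), for the 26 members above background, by role. Dtx3, Dtx4 and Aph1a spread furthest, with ranges from 2.43-fold to 3.21-fold, while the points of Hey1 and Heyl nearly coincide.

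Further genes of the pathway, from a list of 35 that are not members, were mostly above background as well. Of the 32 measured, 21 had several probe sets. In 12 of these some passed and others did not, beside 46.3% of all genes with several. In all, 25 of the 32 passed (78.1%, beside 54.4% of all named genes and 72% of those with several probe sets). Enzymes that act on the receptor before it reaches the membrane were among them: Pofut1, which adds O-fucose, read 9799, 10885 and 10718, Poglut1, which adds O-glucose, read 8050.2, 8694 and 7078, and Furin, which cleaves the precursor, read 639.8, 489 and 514. These pools all lay over background. The gamma-secretase gene Aph1b read 1180.1, 1129 and 496, so pool 3 was lowest there. The ligase genes Mib2 (1125, 1129.9 and 1611) and Neurl1a (919, 555 and 758) passed, and Neurl1b (202, 255 and 229.7) did not. Itch and Fbxw7, which encode parts of ligases that target the receptor for degradation, also passed, with mean signals of 9159.5 ± 1328 and 5552 ± 287 (n = 3 each). Corepressor genes of Rbpj and Hes proteins were above background too, among them Ctbp1, Ctbp2, Cir1, Hdac1 and all 4 of Tle1, Tle2, Tle3 and Tle4, whereas the Rbpj corepressor gene Spen was not (269, 184 and 208, adjusted p = 0.637). The coactivator genes Ep300, Crebbp, Kat2a, Kat2b and Snw1 passed. Of the noncanonical ligands, Dlk1, Dlk2, Dner and Cntn1 did not pass, with mean signals of 184, 331, 177 and 98.8. Nle1, a modulator of the pathway, was just short of the threshold (318, 253 and 335, adjusted p = 0.0534).

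Several members are known from cells other than nephron progenitors, so markers of those cells are given beside them. None of 12 endothelial markers was above background in limma, and 1 had an unadjusted p under 0.05, with summed signals of 1244, 1379.7 and 1403 in pools 1, 2 and 3. The defining genes Pecam1 (61.9, 24.4 and 56.7) and Cdh5 (96.3, 104 and 51.5) were under the background level in every pool, as were Dll4 and Hey2, while Esam (424, 249 and 267) exceeded it in all 3. Of the 12 markers, 9 exceeded it in no pool, and Kdr and Cd34 each exceeded it in 2. Notch4 exceeded it in pool 3 only, with 326. Of 6 mural cell markers, relevant to Notch3 and Heyl, 3 passed: Pdgfrb (790.2, 818 and 803), Acta2 and Cspg4. Rgs5, Myh11 and Tagln did not, and the summed signal was 2525, 2379 and 2463. Stromal markers passed in 6 of 8 cases, Foxd1 (7369.9, 7389 and 7938) among them, with summed signals of 28368, 22108 and 22339. Markers of committing nephrons, relevant to Jag1, Dll1 and Hes5, passed in 6 of 9 cases, with summed signals of 25476, 25913 and 27327. Wnt4 (6693, 5061 and 5138), Pax8 and Lhx1 were above background and Fgf8 (60.7, 10.8 and 9.71) was not. Podocyte markers passed in 1 of 4 cases, ureteric bud markers in 2 of 8, neural markers in 2 of 5 and macrophage markers in 0 of 6, also 0 at an unadjusted p under 0.05. Beside these counts, 54.4% of all named genes were above background. The part of such cells in the signals of the members was not tested.

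**Figure D4:**
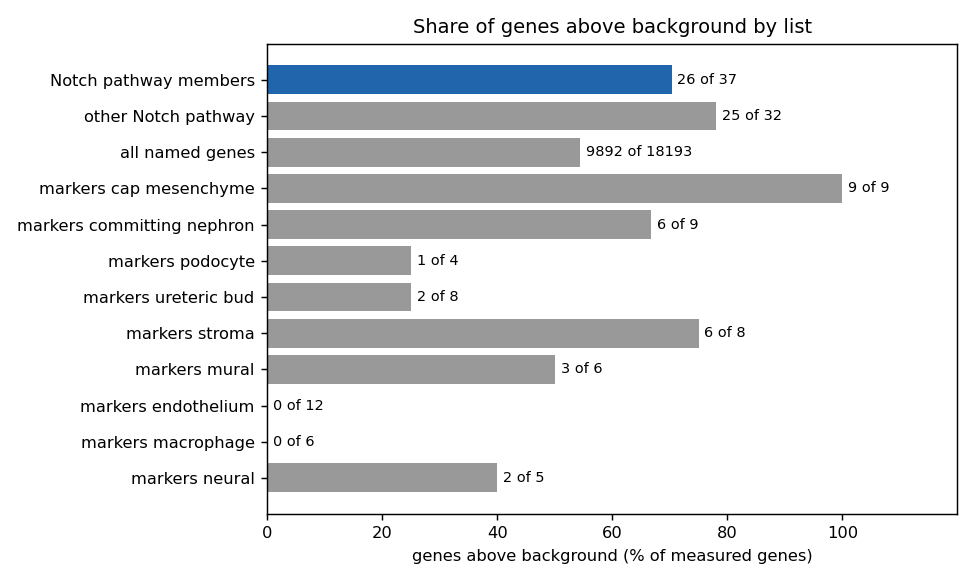
Share of measured genes above background (percent, bars from 0) for the Notch pathway members, the further pathway genes, all named genes and 9 lists of cell type markers, with counts beside the bars. The members stand at 26 of 37, all named genes at 9892 of 18193 and endothelial markers at 0 of 12.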

How the data were processed

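Total RNA of 3 sorted pools was amplified in 2 rounds and hybridised to 1 array each, per the labels. The deposited values are linear intensity signals made by the authors with GCOS, per the submitters' processing notes, whose settings and genome build are not given in the sources used here. Tested on the values, each array had a mean of 1500 once 2% of values at either end were dropped. Of 45101 probe sets, 64 controls were left out. The platform annotation gave 34945 a single symbol, 932 several and 9160 none, and only single-symbol probe sets name a gene.

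From log2(signal + 16), the 95th percentile of 150 probe sets for odorant, vomeronasal and bitter taste receptors, keratin-associated proteins and defensins was subtracted on each array. limma 3.58.1 (R 4.3.3; intercept only, eBayes with intensity trend) tested the mean of 3 pools against 0, one-sided, with Benjamini-Hochberg adjustment over 45037 probe sets, checked on simulated data. The probe set of highest mean log2 signal represents a gene. Alternatives covered the background level and genes, pseudocount, scaling, variance prior, probe sets and pools. The one for probe sets that can match several transcripts left out names ending in _s_at or _x_at and kept those ending in _a_at. By the rule for named genes, only members, further pathway genes and cell type markers are named. The members and lists were chosen with earlier results of these data known. Tables and plots used Python 3.11.15 with pandas 2.3.3.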

Additional observations from a re-analysis of the deposited data

How the results depend on the processing

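Under 14 alternatives, 10 of the 26 members above background kept that call throughout, and 22 did so apart from the choice of probe set. Among the 10, Dll1, Dtx3, Psenen, Hes1 and Hey1 have a single probe set, so that choice could not change their calls. The 11 others stayed without a call under every alternative, although the filter on dim probe sets left none for Maml2, Hes3 and Hey2. Taking the probe set of lowest mean signal gave 11 members, 13 further pathway genes and 5723 named genes above background, since fewer probe sets could then make a call. Under it the log2 distance was -0.44 for Notch1, -0.58 for Notch2, -1.45 for Notch3, -0.24 for Jag1, -1.58 for Jag2, -0.68 for Rfng, -3.17 for Dtx1, -2.47 for Numb, -1.75 for Adam10, -1.81 for Psen2 and -2.00 for Maml1. At the 99th percentile of background it was -0.46 for Jag2 and -0.40 for Numbl. With probe sets named _s_at or _x_at left out it was -1.45 for Notch3. At the 99th percentile the background level itself was higher, at signals of 379 to 486. The only probe set then left for Notch3 read 23.9, 111 and 74.2 in pools 1, 2 and 3. Leaving out 1 pool at a time gave 24 to 25 members above background. It gave 1 to 2 members with a 2-fold range, which cannot widen with fewer pools. The choice of the lowest probe set gives no value for the count of probe sets. No paired analysis was possible because the samples form a single group. With 3 arrays and a background level at signals of 186 to 201, weak transcripts cannot be told from background.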
